A study of Mus musculus with 120 samples.

Results

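Rcan1 and the calcineurin-NFAT pathway were followed through 4 h of calcium store depletion in MEFs, the fibroblasts cultured from mouse embryos. The 10 genes described were picked by symbol from the 22417 genes of the deposited footprint and mRNA tables. They are the calcineurin inhibitors Rcan1, Rcan2 and Rcan3, the calcineurin subunits Ppp3ca, Ppp3cb and Ppp3r1, and the NFAT transcription factors Nfatc1, Nfatc3, Nfatc4 and Nfat5. They were chosen with their total levels in view, so those levels are described with no test. The study asked how parts of the PERK pathway shape translation during stress of the endoplasmic reticulum (ER). It used 3 kinds of MEF: cells whose eIF2α carries S51A and cannot be phosphorylated at that residue (S51A, from Scheuner et al.), cells labelled ATF4-/- (from Hettmann et al.), and C57BL/6 wild-type cells (WT). The labels state eIF2α alone as altered in the S51A line and Atf4 alone in the line labelled ATF4-/-, and give no number of clones or embryos behind a line. Each line was left untreated (0 h) or given 1 µM thapsigargin, which blocks the ER calcium pump, for 0.5, 1, 2 or 4 h. Cytosol and ER contents were released in turn with digitonin and DDM, and ribosome footprints (made with micrococcal nuclease) and rRNA-depleted mRNA were sequenced from each fraction.

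Calcineurin is a phosphatase switched on by calcium and calmodulin. It strips phosphates from NFATc proteins, which then enter the nucleus and act on their target genes. RCAN proteins bind calcineurin and hold it back, and Rcan1 has a second, internal promoter that NFAT itself drives, so the gene is a classic readout of calcineurin activity. Depleting the ER store with thapsigargin opens calcium entry channels in the plasma membrane and is a common way to activate this pathway.

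The labels list 120 samples, 2 for each of 60 groups of genotype, fraction, library kind and time, without saying that the 2 came from separate cultures. All p-values therefore measure only the spread between these samples. The 2 libraries of a group are called a and b here, without any link to the titles' replicate numbers. Levels are in RPKM (reads per kilobase of coding sequence, scaled to sequencing depth), so genes can be compared per length. Footprint libraries held 5412377 to 12352391 reads in S51A, 1847866 to 7441031 in libraries labelled ATF4-/- and 293852 to 9542676 in WT. For mRNA the range was 667 to 556255 reads in S51A, 207 to 300960 reads in libraries labelled ATF4-/- and 56964 to 118512 reads in WT. The labels list 2 mRNA samples per group for ATF4-/- too, but its deposited mRNA values resolve into whole reads of 1 library per group, and the other sample is not analysed here. In WT footprint libraries a gene with fewer than 4 reads is listed at 0. Atf4 footprint totals were 44.6 to 65.7 RPKM in S51A, 11.5 RPKM untreated and 166 to 362 RPKM treated in the libraries labelled ATF4-/-, and 132 RPKM untreated and 1030 to 1560 RPKM treated in WT. The Atf4 signal thus went up with treatment in the libraries labelled ATF4-/-, and a footprint level cannot show whether it gives a working protein. All 9 fibroblast markers reached 1 RPKM in each line, and the summed leukocyte, endothelial and epithelial markers stayed at or below 4.23 RPKM. The muscle list was carried by Acta1, a close relative of other actins, while the muscle-defining Myod1 and Myog were at or near 0. The neural list was carried by Tubb3 and, in WT, by Map2 too. Map2 had 30.7 to 42.7 RPKM in WT, at most 5.20 RPKM in S51A and at most 1.44 RPKM in the libraries labelled ATF4-/-. In bulk samples, fewer cells of a type and less RNA per cell cannot be told apart.

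Rcan1 has 2 start regions in the RefSeq promoter table (build GRCm38.p6, minus strand of chromosome 16). They are shown because Rcan1 had the widest fold range of the members with no total listed at 0, and because the downstream one is the internal promoter. Each runs from 250 bases before to 50 bases after the start, 5′ to 3′, and capitals mark GGAAA on either strand, the core of NFAT sites.
Rcan1 downstream promoter, chr16:92400029-92400328: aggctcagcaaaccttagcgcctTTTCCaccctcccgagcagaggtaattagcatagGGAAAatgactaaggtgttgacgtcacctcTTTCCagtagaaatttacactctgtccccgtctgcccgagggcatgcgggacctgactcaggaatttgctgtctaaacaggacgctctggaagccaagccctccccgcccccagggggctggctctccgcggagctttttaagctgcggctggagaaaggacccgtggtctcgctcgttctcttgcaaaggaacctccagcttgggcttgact
Rcan1 upstream promoter, chr16:92466120-92466419: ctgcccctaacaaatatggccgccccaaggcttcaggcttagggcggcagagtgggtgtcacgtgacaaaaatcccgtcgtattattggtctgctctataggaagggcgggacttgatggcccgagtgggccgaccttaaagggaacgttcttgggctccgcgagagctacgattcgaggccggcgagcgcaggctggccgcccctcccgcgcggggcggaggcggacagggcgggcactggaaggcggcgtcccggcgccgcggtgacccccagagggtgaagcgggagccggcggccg
The downstream promoter held GGAAA 3 times, at −227, −193 and −163 from the start, and the upstream one not at all. GGAAA is common: 61.3% of the 32851 promoters in the table held it at least once and 9.42% at least 3 times. Between the second and the third of them the downstream promoter held TGACGTCA, the full cyclic AMP response element, at −175, a word found in 1.79% of promoters. It also held the AP-1 word TGANTCA at −110, found in 7.81%. The upstream promoter held neither word, and neither promoter held TGATGNAA, a form of the composite element that ATF4 binds (3.97% of promoters). All words were searched on both strands. Among the other members in the table, GGAAA occurred 4 times in the Ppp3cb promoter, 3 times in that of Nfatc4 and not at all in that of Ppp3r1.

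Rcan1 footprints reached 60.9 times the untreated total in WT, or 96.5 times without untreated cytosol library a, and they were higher than untreated from 0.5 h on in S51A and WT and from 1 h on in the libraries labelled ATF4-/-. In S51A cytosol the libraries a and b read 11.98 and 8.61 RPKM at 0 h, 28.9 and 24.1 at 0.5 h, 143 and 108 at 1 h, 99.97 and 149 at 2 h, and 63.8 and 21.98 at 4 h. In S51A ER they read 3.10 and 5.36, 8.50 and 11.2, 94.6 and 35.4, 71.5 and 46.9, and 36.5 and 14.1 RPKM at the same times. At each time after 0 h all 4 treated S51A libraries lay above the untreated ones of their fraction. Libraries a and b differed most in ER at 1 h and in both fractions at 4 h, where a was higher.

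In cytosol labelled ATF4-/- Rcan1 read 4.76 and 3.24 RPKM at 0 h, 4.18 and 1.23 at 0.5 h, 14.1 and 14.4 at 1 h, 21.4 and 14.7 at 2 h, and 9.97 and 6.44 at 4 h. In ER labelled ATF4-/- it read 2.48 and 1.574, 2.79 and 1.96, 8.18 and 9.93, 11.7 and 17.4, and 9.33 and 6.92 RPKM. These libraries overlapped untreated ones at 0.5 h, where they rest on 3 to 23 Rcan1 reads each, and were above them in both fractions from 1 h on.

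In WT cytosol Rcan1 read 30.3 and 9.22 RPKM at 0 h, 208 and 230 at 0.5 h, 816 and 717 at 1 h, 1563 and 1332 at 2 h, and 266 and 341 at 4 h. In WT ER it read 5.02 and 12.5, 91.7 and 133, 188 and 151, 288 and 288, and 76.4 and 77.2 RPKM. Every treated WT library was above both untreated libraries of its fraction, and both fractions peaked at 2 h. The 3 WT footprint libraries with the fewest reads, cytosol b at 0.5 h and 1 h and ER b at 1 h, still held 70, 310 and 106 Rcan1 reads and lay close to their partners.

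**Figure D1:**
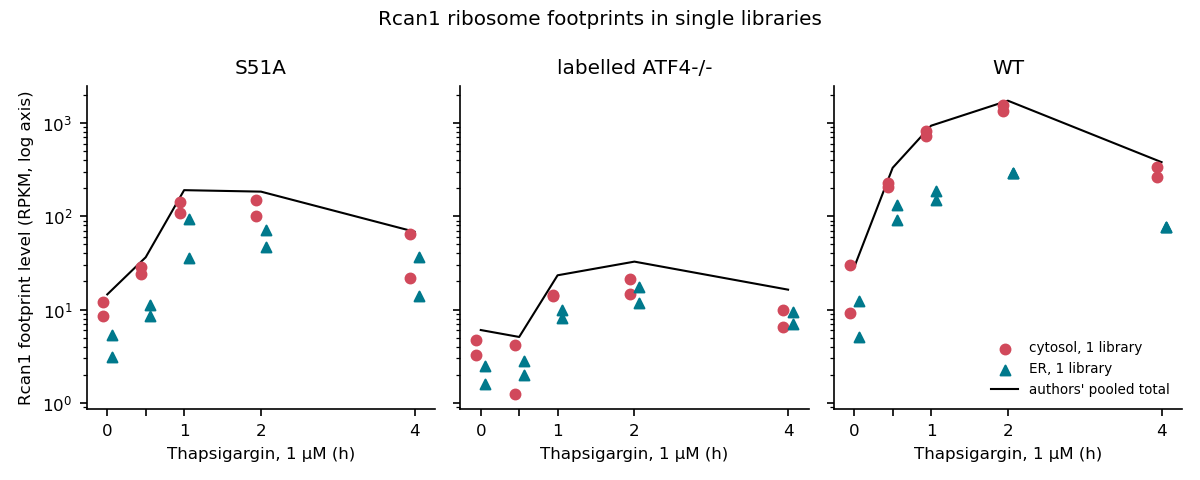
Rcan1 footprint level (RPKM, log axis) against hours of 1 µM thapsigargin in S51A, cells labelled ATF4-/- and WT. Circles are cytosol libraries, triangles ER libraries and the line is the authors' pooled total; WT reaches 1735 RPKM at 2 h, against 184 RPKM in S51A and 32.6 RPKM in cells labelled ATF4-/-.

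The authors' pooled Rcan1 totals, which add cytosol and ER, give the same order as the libraries. In S51A the total was 2.50, 13.1, 12.7 and 4.70 times the untreated one at 0.5, 1, 2 and 4 h. For the libraries labelled ATF4-/- these ratios were 0.843, 3.86, 5.41 and 2.71, and in WT they were 11.6, 32.8, 60.9 and 13.3. Without WT cytosol library a of 0 h, which read 30.3 RPKM against 9.22 RPKM in b, the WT ratios were 18.4, 52.1, 96.5 and 21.2. Leaving out any other single library moved none of the 12 ratios by over 1.5 times (this check was chosen after seeing the data). The fitted change at 2 h, averaged over fractions on log2(RPKM + 1), was 3.50 in S51A, 2.14 in the libraries labelled ATF4-/- and 5.67 in WT. These fitted values are a description with no test. Ranked by ratio among genes with an untreated total of at least 1 RPKM, Rcan1 stood at rank 11, 1, 3 and 20 of 11315 genes in S51A at 0.5, 1, 2 and 4 h. Its ranks in the libraries labelled ATF4-/- were 6954 of 10365, 76 of 10363, 28 of 10366 and 236 of 10366. In WT they were 8 of 11008, 1 of 10970, 1 of 10854 and 5 of 11085. These ranks use the totals that chose the gene and are a description.

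The distance between the lines was already present at 0 h in 1 of the 2 pairs. Untreated Rcan1 totals were 14.5 RPKM in S51A, 6.03 RPKM in the libraries labelled ATF4-/- and 28.5 RPKM in WT. S51A and WT libraries overlapped at 0 h, while those labelled ATF4-/- were below WT in both fractions. After treatment the S51A total was 36.3 RPKM at 0.5 h, 191 at 1 h, 184 at 2 h and 68.2 at 4 h, against 331, 936, 1735 and 380 RPKM in WT, so WT was 9.10, 4.91, 9.44 and 5.58 times higher. The total in the libraries labelled ATF4-/- was 5.08, 23.3, 32.6 and 16.3 RPKM, and WT was 65.1, 40.2, 53.2 and 23.3 times higher. All treated libraries of both lines were below the WT libraries of the same time and fraction.

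Rcan1 encodes a longer and a shorter protein that share their downstream exons. All 30 Rcan1 level values (3 genotypes, 5 times and 2 fractions, footprints) could be split into whole reads with the shorter coding length of 594 nt, and none with the longer one of 753 nt. The deposited level is therefore scaled to the shorter coding sequence. Which reads were counted toward it is not stated, so the level does not say which protein the ribosomes were making.

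The Rcan1 mRNA was too thinly sequenced for a test. In S51A cytosol its 2 libraries read 0 and 0 RPKM at 0 h, 38.7 and 0 at 0.5 h, 56.7 and 26.8 at 1 h, 114 and 145 at 2 h, and 99.6 and 0 at 4 h. In S51A ER they read 8.91 and 10.5, 17.1 and 4.56, 0 and 0, 70.6 and 0, and 31.99 and 40.8 RPKM. Both ER libraries of 1 h and library b of cytosol at 0.5 h and 4 h and of ER at 2 h were at 0, and ER b of 1 h and 2 h are among the 3 S51A mRNA libraries of lowest depth.

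In WT cytosol Rcan1 mRNA read 0 and 4.99 RPKM at 0 h, 42.6 and 65.1 at 0.5 h, 73.0 and 31.3 at 1 h, 111 and 214 at 2 h, and 55.7 and 76.6 at 4 h. In WT ER it read 0 and 8.93, 16.6 and 44.5, 82.8 and 103, 122 and 212, and 72.7 and 114 RPKM. The 4 untreated WT libraries held 2 Rcan1 reads in all, and every treated WT library was above them in its fraction. The single libraries labelled ATF4-/- gave totals listed at 0, 0, 19.2, 13.3 and 25.5 RPKM from 0 h to 4 h. With zeros counted in the mean, the ratio of the footprint to the mRNA total was 1.49, 1.20, 4.56, 1.12 and 0.792 over the 5 times in S51A, and 4.10, 3.92, 6.45, 5.27 and 2.39 in WT. It was 1.21, 2.45 and 0.640 at 1, 2 and 4 h in the libraries labelled ATF4-/-. These ratios carry the counting error of few mRNA reads, and no test of translational efficiency was possible for the members. With zeros counted, mRNA levels of Ppp3r1, the highest among the other members in WT, were 9.63, 1.99, 6.60, 14.8 and 17.9 RPKM from 0 h to 4 h in S51A, against 88.6, 75.1, 60.3, 89.4 and 97.3 RPKM in WT. They rest on 13, 1, 2, 4 and 13 reads over all S51A libraries and on 29, 21, 19, 28 and 26 reads over all WT libraries.

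**Figure D2:**
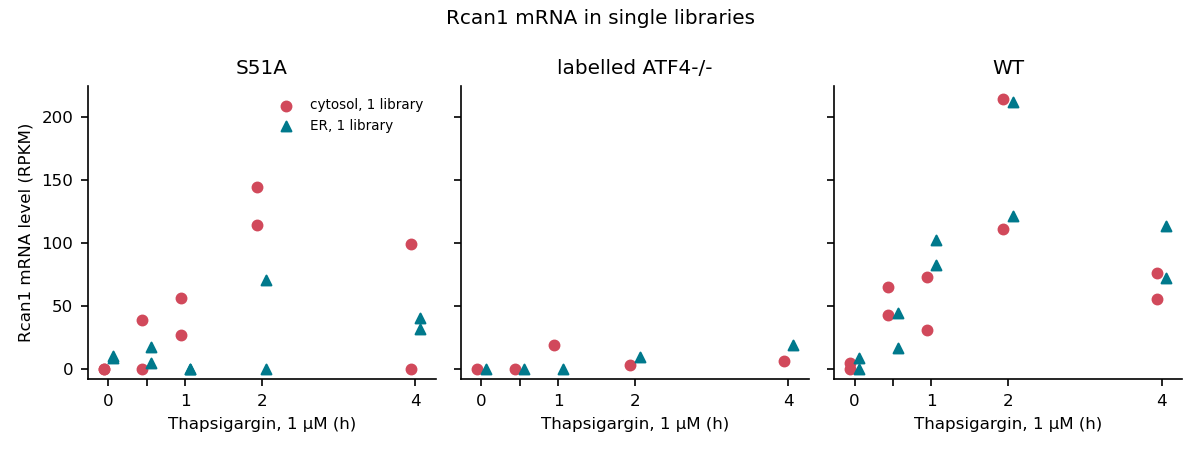
Rcan1 mRNA level (RPKM) against hours of 1 µM thapsigargin in S51A, cells labelled ATF4-/- (1 library per group) and WT; circles are cytosol and triangles ER libraries. WT libraries reach 214 RPKM at 2 h and start from 0 to 8.93 RPKM, while several S51A libraries lie at 0 beside others with up to 145 RPKM.

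In S51A, where all 3 genes held enough reads to be compared, the libraries of Rcan2 and Rcan3 overlapped untreated ones in at least 1 fraction at every time while those of Rcan1 lay above them. Rcan2, a calcineurin inhibitor with a similar binding region, had S51A footprint totals of 11.6, 13.9, 8.52, 5.26 and 6.66 RPKM from 0 h to 4 h, and at each time its treated libraries overlapped untreated ones in at least 1 fraction. Its total was 0.558 to 1.22 RPKM in the libraries labelled ATF4-/-. In WT it was 8.82, 0, 1.23, 4.38 and 4.87 RPKM, and all 4 WT libraries of 0.5 h are listed at 0 under the 4-read minimum. Rcan3, the third family member, stayed within 9.56 to 12.2 RPKM in S51A, 4.82 to 7.39 RPKM in the libraries labelled ATF4-/- and 13.3 to 24.9 RPKM in WT. Neither gene held enough reads in WT or in the libraries labelled ATF4-/- for a comparison with untreated cells.

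In S51A the libraries of each calcineurin subunit overlapped untreated ones in at least 1 fraction at every time. Ppp3ca, Ppp3cb and Ppp3r1 lay below untreated in both fractions of the libraries labelled ATF4-/- at 0.5, 1, 2 and 4 h, as did 10.5%, 13.4%, 12.6% and 16.2% of all genes. In WT Ppp3cb and Ppp3r1 lay below untreated at 0.5, 1 and 2 h (15.4%, 18.9% and 14.4% of all genes) and Ppp3ca at 2 h, with too few reads of Ppp3ca to compare at 0.5 h and 1 h. Ppp3cb, which encodes a catalytic subunit, had totals of 47.8, 50.9, 51.7, 48.7 and 46.6 RPKM from 0 h to 4 h in S51A. The libraries labelled ATF4-/- had 28.8, 15.7, 15.5, 18.2 and 14.4 RPKM, and in WT 59.8, 30.9, 22.1, 28.3 and 40.0 RPKM. The S51A cytosol libraries overlapped their untreated ones at every time, and the ER ones lay just below them at 0.5 h and just above at 4 h. All treated libraries labelled ATF4-/- and all WT libraries of 0.5, 1 and 2 h lay below the untreated ones of their fraction.

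By library, Ppp3cb read 40.5 and 35.9 RPKM in S51A cytosol at 1 h, against 38.6 and 26.9 untreated, and 15.5 and 11.5 in S51A ER, against 14.1 and 16.1. In cytosol labelled ATF4-/- it read 11.0003 and 9.66 RPKM at 1 h, against 14.2 and 19.3 untreated, and in that ER 4.68 and 5.63, against 10.3 and 13.8. In WT cytosol it read 18.2 and 10.5 RPKM at 1 h, against 39.8 and 41.8 untreated, and in WT ER 7.97 and 7.54, against 15.1 and 22.8. By 4 h the WT ER libraries, at 16.9 and 16.2 RPKM, overlapped the untreated ones again. Those of WT cytosol, at 22.5 and 24.5 RPKM, did not. WT libraries b of 1 h hold only 12 and 14 Ppp3cb reads, and the libraries a alone are also below the untreated ones.

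Ppp3r1, the calcium-binding regulatory subunit, had the highest footprint level per length of the 10 genes in untreated cells. Its totals from 0 h to 4 h were 273, 307, 280, 271 and 316 RPKM in S51A, 229, 160, 176, 171 and 166 RPKM in the libraries labelled ATF4-/-, and 345, 229, 220, 293 and 368 RPKM in WT. In WT it was thus back near the untreated level at 4 h, where the cytosol libraries overlapped, while the libraries labelled ATF4-/- were below untreated in both fractions at every time. Ppp3ca, the other catalytic subunit, had 49.0, 53.4, 66.1, 62.9 and 40.5 RPKM in S51A, with libraries a and b of cytosol as far apart as 58.4 and 25.99 RPKM at 1 h. It had 13.7, 7.54, 8.40, 8.86 and 8.80 RPKM in the libraries labelled ATF4-/- and 29.9, 12.3, 13.02, 16.8 and 21.1 RPKM in WT. The WT value at 0.5 h leaves out cytosol b, which is listed at 0.

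**Figure D3:**
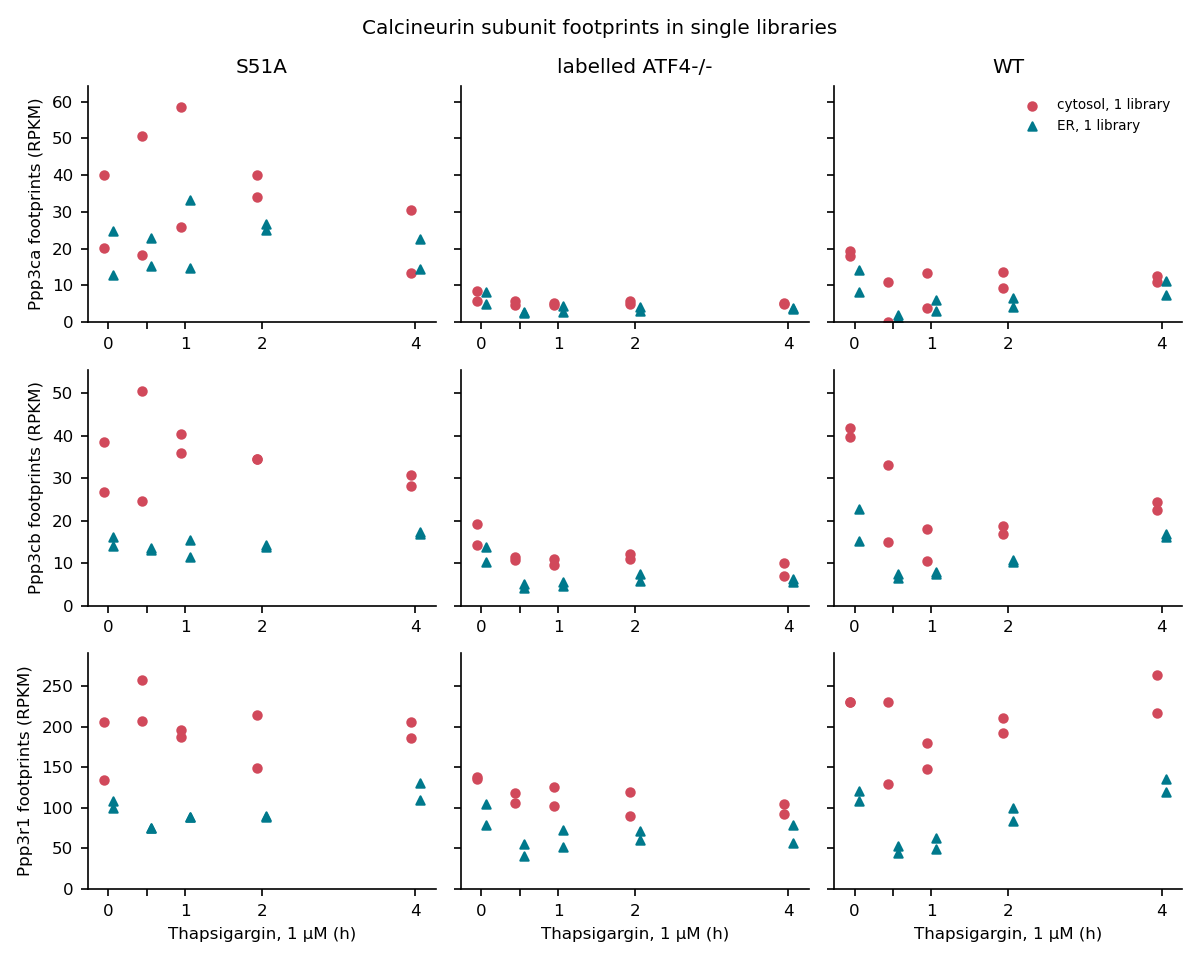
Footprint level (RPKM) of the calcineurin subunits Ppp3ca, Ppp3cb and Ppp3r1 in single libraries against hours of 1 µM thapsigargin; columns are S51A, cells labelled ATF4-/- and WT, circles cytosol and triangles ER. Ppp3cb in WT cytosol lies at 18.2 and 10.5 RPKM at 1 h, against 39.8 and 41.8 RPKM untreated, while its S51A cytosol libraries overlap at every time.

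Of the NFATc factors, which calcineurin activates, Nfatc1 lay above untreated in S51A at 2 h (11.1% of all genes did), and Nfatc3 and Nfatc4 lay below (14.7%). In WT Nfatc1 was under the depth needed at every time. Nfatc1, which can be induced from an NFAT-responsive promoter of its own, had totals of 6.67, 7.26, 7.07, 21.3 and 11.03 RPKM from 0 h to 4 h in S51A. At 2 h its S51A libraries read 14.99 and 12.4 RPKM in cytosol, against 4.52 and 3.70 untreated, and 7.16 and 8.09 RPKM in ER, against 2.68 and 2.44. These did not overlap, and the 4 h libraries overlapped in cytosol. Its totals were 2.16, 2.29, 3.18, 4.20 and 2.42 RPKM in the libraries labelled ATF4-/-, with no overlap at 1 h and 2 h. In WT they were 3.46, 3.84, 5.04, 5.58 and 3.57 RPKM, with 0 to 41 reads per treated library up to 2 h, under the depth needed here.

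Nfatc4 had lower footprints late in the course in both lines that express it. Its totals from 0 h to 4 h were 9.97, 11.6, 9.51, 5.74 and 3.67 RPKM in S51A and 8.72, 7.54, 6.79, 5.21 and 3.35 RPKM in WT. The S51A libraries lay below untreated in both fractions at 2 h and 4 h, and the WT ones at 2 h. Nfatc4 was at 0.131 to 0.332 RPKM in the libraries labelled ATF4-/-. Nfatc3 had 18.9, 20.3, 14.4, 12.9 and 14.9 RPKM in S51A, where its libraries lay below untreated from 1 h on. It had 7.85 to 11.4 RPKM in the libraries labelled ATF4-/- and 9.98 to 15.8 RPKM in WT.

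Nfat5, the family member that answers to osmotic stress and lacks the calcineurin-binding region, followed another course. Its totals from 0 h to 4 h were 17.1, 16.7, 16.9, 14.9 and 9.55 RPKM in S51A, 12.3, 16.1, 15.96, 13.5 and 8.96 RPKM in the libraries labelled ATF4-/-, and 14.8, 24.4, 22.1, 21.1 and 17.7 RPKM in WT. At 0.5 h the WT libraries read 12.1 and 13.4 RPKM in cytosol, against 8.55 and 7.98 untreated, and 11.7 and 11.6 RPKM in ER, against 8.27 and 4.79. They did not overlap. In S51A at 4 h they read 3.70 and 6.39 RPKM in cytosol, against 10.03 and 11.05 untreated, and 3.18 and 5.83 RPKM in ER, against 7.18 and 6.02, with no overlap.

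**Figure D4:**
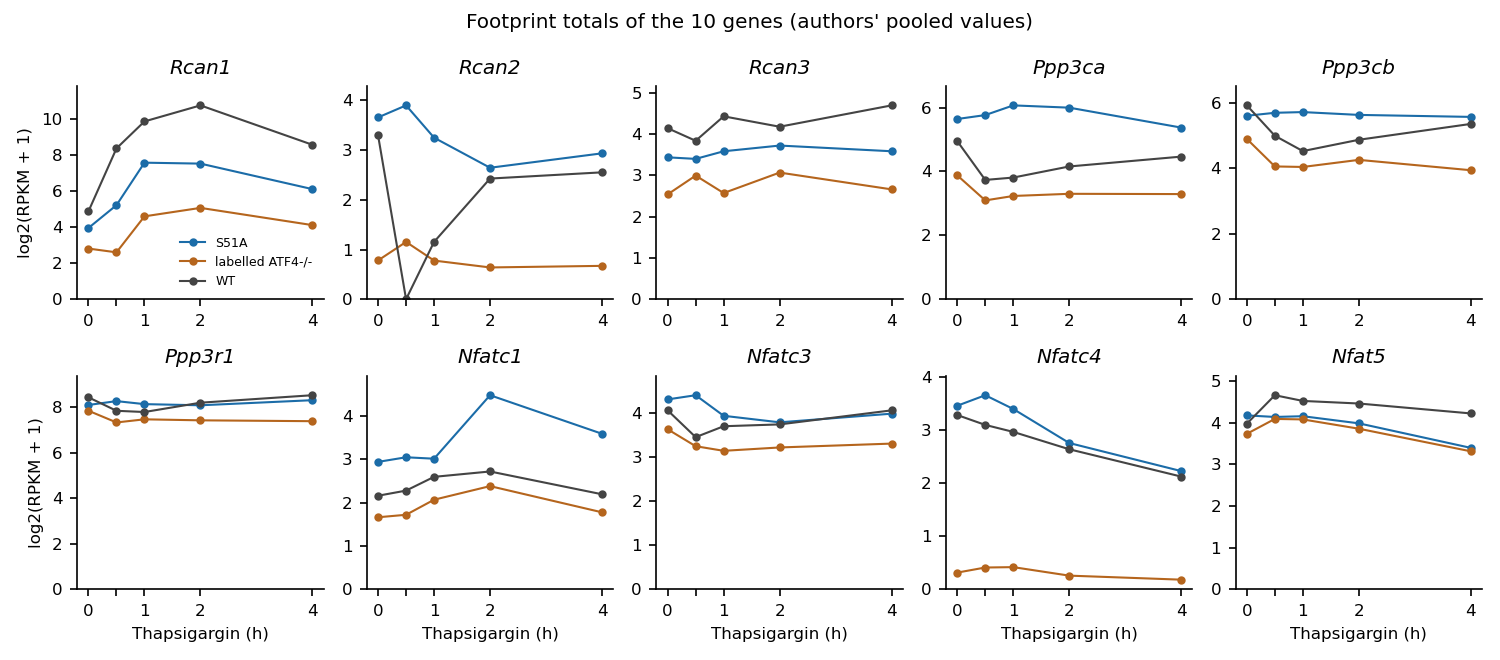
Authors' pooled footprint totals, log2(RPKM + 1), of the 10 genes against hours of thapsigargin, with 1 line each for S51A, cells labelled ATF4-/- and WT; each panel has its own axis from 0. Rcan1 reaches 1735 RPKM in WT, Nfatc1 peaks at 21.3 RPKM in S51A at 2 h and Nfatc4 stays at or below 0.332 RPKM throughout in cells labelled ATF4-/-.

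Counted together, members were compared where their mean level predicted at least 20 reads in each library, and the share of all genes with as clear a separation is given beside each count with nothing read from it, since total levels chose the members. In S51A, with 10 members compared, treated libraries were above untreated in both fractions for 1, 1, 2 and 1 members at 0.5, 1, 2 and 4 h (0.0701%, 1.97%, 11.1% and 13.7% of all genes), and below for 0, 1, 2 and 3 (0.245%, 6.1%, 14.7% and 10.8%). In the libraries labelled ATF4-/-, with 5 members compared at 0.5 h and 7 later, they were above for 0, 2, 2 and 1 (6.6%, 11.8%, 17.7% and 20%) and below for 3, 3, 4 and 3 (10.5%, 13.4%, 12.6% and 16.2%). In WT, with 4, 4, 7 and 6 members compared, they were above for 2, 1, 1 and 1 (14.7%, 11.9%, 26.5% and 29.1%) and below for 2, 2, 4 and 0 (15.4%, 18.9%, 14.4% and 11.5%). Untreated, S51A libraries were above WT for 1 of 9 members (Nfatc1; 17.1% of all genes) and below for 1 (Ppp3r1; 28.8%). Untreated libraries labelled ATF4-/- were below WT for 5 of 6 members compared (Ppp3ca, Ppp3cb, Ppp3r1, Nfatc3 and Nfatc4; 35.5% of all genes) and above for 0 (15%). Nfatc4 could be compared there only through its WT level.

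The depth rule uses the mean level of the groups compared, so some members passed it only through the group where they are higher, and the counts that hold them are a description. These were Rcan1 at 1, 2 and 4 h and Nfatc1 at 1 h in the libraries labelled ATF4-/-. In WT they were Rcan1 at every time, Nfat5 and Ppp3cb at 0.5 h, Ppp3cb at 1 h and Nfatc4 at 2 h, and in the untreated comparison of the libraries labelled ATF4-/- with WT it was Nfatc4. With 20 reads required at the level of each group, a setting chosen after seeing the data, 5, 5, 6 and 6 members could be compared in the libraries labelled ATF4-/-, with 0, 0, 1 and 0 above untreated and 3, 3, 4 and 3 below. In WT 1, 2, 5 and 5 could be compared, with 0 above at each time and 1, 1, 3 and 0 below. No member passed through 1 group alone where treated and untreated S51A were compared. In the untreated comparison of S51A with WT, Rcan1 and Rcan3 passed only through WT, where their totals are higher. With 20 reads required in each group, 7 members could be compared there, with 1 above WT and 1 below. For untreated libraries labelled ATF4-/- 5 could be compared with WT, with 0 above and 4 below. No share of all genes is given beside the counts under this stricter setting, so nothing is read from them.

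The split of footprints between ER and cytosol was not used to choose the members, so it was tested with limma. In untreated S51A cells ER minus cytosol was −1.05 ± 0.27 (log2, SE) for Ppp3cb (adjusted p = 0.00228), −0.997 ± 0.26 for Nfatc3 (adjusted p = 0.00221) and −0.68 ± 0.23 for Ppp3r1 (adjusted p = 0.0171). These 3 of 10 tested members were lower on the ER, as were 33.9% of all genes. In untreated WT cells Ppp3cb, at −1.09 ± 0.27 (adjusted p = 0.00211), and Ppp3r1, at −1.003 ± 0.23 (adjusted p = 0.00104), were the 2 of 9 members lower on the ER (42.9% of all genes). In untreated cells labelled ATF4-/- limma called 0 of 7 members (8.79% of all genes lower), with 1 at an unadjusted p under 0.05, Ppp3r1. Without S51A cytosol library a of 0 h, 1 member was called in S51A. In WT, 1 member was called without ER library a of 0 h and 5 without ER library b of 0 h.

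The ER share of Rcan1 footprints was 29.1%, 27.1%, 34.1%, 32.2% and 37.1% from 0 h to 4 h in S51A. It was 33.7%, 46.8%, 38.9%, 44.6% and 49.8% in the libraries labelled ATF4-/-, and 30.7%, 33.9%, 18.1%, 16.6% and 20.2% in WT. In WT the fitted change of ER minus cytosol was −1.19 ± 0.68 at 1 h (limma adjusted p = 0.308) and −1.33 ± 0.68 at 2 h (adjusted p = 0.793), against an SE too wide to separate these from 0. At both times Rcan1 passed the depth rule in WT only through its treated level, so these 2 values are a description. Over members and the 4 times limma called a change in 0 of 40 comparisons in S51A (2 at an unadjusted p under 0.05, Ppp3r1 and Nfatc4). It called 0 of 26 in the libraries labelled ATF4-/- (0 unadjusted) and 0 of 21 in WT (1 unadjusted, Ppp3r1). Over all genes the calls ran to 4.19% in S51A, 20.8% in the libraries labelled ATF4-/- and 22.3% in WT at 0.5 h. They were 0%, 4.33% and 8.61% at 1 h, 0%, 0.143% and 1.3% at 2 h, and 0%, 0.0667% and 0.045% at 4 h in the same order of lines. Without S51A cytosol library a of 0 h, 2 members were called in S51A, and without WT cytosol library b of 0.5 h, 1 in WT.

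Genes with a course like that of Rcan1 were ranked by Pearson's r over the 15 pooled footprint totals on log2(RPKM + 1), among 8824 genes with a mean total of at least 5 RPKM. The 8 highest were Fam118a (0.955), Spty2d1 (0.944), Gorab (0.943), Etv3 (0.942), Stx11 (0.935), Rabgef1 (0.927), Nrbf2 (0.925) and Lysmd3 (0.922). The 15 totals share lines and libraries, so r is a description only. Their ranges were much smaller than that of Rcan1: Fam118a had 15.8 to 26.4 RPKM in S51A, 10.7 to 21.3 RPKM in the libraries labelled ATF4-/- and 21.6 to 52.4 RPKM in WT. Among the members r with Rcan1 was 0.792 for Rcan3, 0.596 for Nfat5 and 0.425 for Ppp3r1, and 0.386 or less for Ppp3cb, Ppp3ca, Nfatc1 and Nfatc3.

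Around the 10 genes, 5 lists with 89 other genes were tested with limma over all genes. Regulators of the pathway (other subunits, calmodulin, anchors, immunophilins and NFAT kinases) mostly fell where they were called in WT and in the libraries labelled ATF4-/-. In S51A limma called 0 of 16 tested regulators at 1 h or at 4 h (0 and 3 at an unadjusted p under 0.05), while over all genes 0.255% were called higher and 0.208% lower at 1 h, and 4.82% and 4.51% at 4 h. In the libraries labelled ATF4-/- 4 of 12 fell at 1 h and 4 of 14 at 4 h (10.8% higher and 10% lower of all genes at 1 h, 13.2% and 8.78% at 4 h). In WT 4 of 8 fell at 1 h and 2 of 12 at 4 h (16.2% and 24.1% of all genes at 1 h, 22.3% and 7.51% at 4 h). At 2 h in WT 1 of 12 rose and 2 fell (23.4% and 10.6%), and in the libraries labelled ATF4-/- 4 of 13 fell (11.8% and 5.93%). At 0.5 h 6 of 8 fell in WT (18% and 30.7%) and 4 of 12 in the libraries labelled ATF4-/- (9.98% and 14.5%). In S51A 0 of 16 were called at 0.5 h (0% and 0%) and at 2 h (3.7% and 3.89%). The median change at 1 h was −0.12 over the 16 regulators tested in S51A, −0.28 over the 12 in the libraries labelled ATF4-/- and −0.50 over the 8 in WT. For all genes it was −0.07, −0.01 and −0.10. The lines were tested on different sets of genes, so these medians do not compare them.

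The 4 regulators that fell in WT at 1 h were Csnk1a1, Csnk1d and Gsk3b, which can rephosphorylate NFAT, and Fkbp1a. The other NFAT kinases Gsk3a, Csnk1e, Dyrk1a and Dyrk1b (named after their values were seen) held too few reads there to test. Csnk1a1, casein kinase 1 alpha, fell by 1.08 ± 0.18 on the log2 scale in WT (adjusted p = 1.41e-05), with totals of 130 RPKM at 1 h, against 276 RPKM untreated. Csnk1a1 also fell in the libraries labelled ATF4-/-, by 1.15 ± 0.18 (adjusted p = 1.86e-05), and in S51A its change was 0.10 ± 0.18 (adjusted p = 1). Gsk3b fell by 0.61 ± 0.16 (adjusted p = 0.00199) and Csnk1d by 0.55 ± 0.12 (adjusted p = 0.00054) in WT at 1 h. Fkbp1a, the immunophilin through which FK506 blocks calcineurin, fell by 0.60 ± 0.17 (adjusted p = 0.00481; 0.0631 without WT cytosol library a of 1 h). At 4 h Csnk1d was still lower in WT, by 0.53 ± 0.12 (adjusted p = 0.0012). Calm3, a calmodulin gene, fell by 0.71 ± 0.23 at 4 h (adjusted p = 0.0194), a call lost without WT cytosol b or ER a of 0 h or without WT cytosol a or ER b of 4 h (adjusted p of 0.104, 0.113, 0.0997 and 0.103 in that order). The Calm3 call was also lost when limma was fitted within WT alone (adjusted p = 0.144). The change of Csnk1a1 at 1 h differed between the lines, with S51A minus WT at 1.18 ± 0.25 (adjusted p = 0.00117).

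Genes that others have reported as NFAT targets were called in both directions, and each count stands beside the shares of all genes called higher and lower. In S51A limma called 0 of 10 tested at 0.5 h (3 at an unadjusted p under 0.05; 0% and 0% of all genes). There 1 of 11 rose and 1 fell at 1 h (0.255% and 0.208%), 2 of 11 rose and 3 fell at 2 h (3.7% and 3.89%), and 3 of 10 fell at 4 h (4.82% and 4.51%). In the libraries labelled ATF4-/- 1 of 6 rose and 1 fell at 0.5 h (9.98% and 14.5%), 5 of 7 rose and 1 fell at 1 h (10.8% and 10%), 3 of 7 rose and 1 fell at 2 h (11.8% and 5.93%), and 3 of 8 fell at 4 h (13.2% and 8.78%). In WT 1 of 2 rose and 1 fell at 0.5 h (18% and 30.7%), 1 of 3 rose and 1 fell at 1 h (16.2% and 24.1%), 4 of 6 rose and 2 fell at 2 h (23.4% and 10.6%), and 3 of 6 rose and 2 fell at 4 h (22.3% and 7.51%). The median change at 4 h was −0.56 over the 10 genes tested in S51A, −0.46 over the 8 in the libraries labelled ATF4-/- and 0.59 over the 6 in WT, beside 0.01, 0.03 and 0.13 for all genes. These are not the same genes, since Egr2, Egr3 and Nr4a1 could not be tested in WT at 4 h and Il6 could be tested in WT alone, so the medians do not compare the lines.

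Many of these calls are of genes that passed the depth rule only through the group where they are higher. They were Nr4a3 at 1 h and 2 h and Egr2 and Egr3 at 4 h in S51A, Egr3 at 1 h and Egr2 at 4 h in the libraries labelled ATF4-/-, and in WT Ptgs2 at 0.5 h and 1 h, Nr4a1 at 2 h, Il6 and Bdnf at 2 h, and Il6 and Ccnd1 at 4 h. With 20 reads required at the level of each group, 0 of 9 rose and 1 fell at 1 h in S51A (0.239% and 0.215% of all genes), 1 of 10 rose and 3 fell at 2 h (3.47% and 3.84%), and 0 of 7 rose and 1 fell at 4 h (4.81% and 4.41%). In the libraries labelled ATF4-/- 1 of 5 rose and 1 fell at 0.5 h (7.73% and 15.9%), 4 of 6 rose and 1 fell at 1 h (8.6% and 10.8%), 3 of 7 rose and 1 fell at 2 h (10.3% and 6.23%), and 2 of 5 fell at 4 h (11.9% and 9.24%). In WT 1 gene was tested at 0.5 h and at 1 h, Cdk4, and it fell (32.9% and 21.2% of all genes lower). Of 3 tested in WT, 1 rose and 2 fell at 2 h (20.8% and 10%), and 2 rose and 1 fell at 4 h (19.4% and 6.85%).

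In WT the genes that rose at 1 h or 4 h were Ptgs2, Il6 and Bdnf, and the call of Nr4a1 was made at 2 h. Under the rule on each group's level those of Ptgs2 at 2 h and 4 h and of Bdnf at 4 h could still be tested. Ptgs2, the inducible cyclooxygenase, had WT footprint totals of 379 RPKM untreated and 1205, 1129, 1261 and 1143 RPKM from 0.5 h to 4 h. Its fitted changes in WT were 3.45, 2.95, 2.38 and 1.54 (log2, each with an SE of 0.41; adjusted p = 8.57e-08, 8.01e-07, 2.55e-05 and 0.00408). The fit averages the log changes of both fractions while the totals add their levels, and the decline over time in the fit is not seen in the totals, which were 3.18, 2.98, 3.33 and 3.02 times the untreated one. In S51A Ptgs2 had 57.0 RPKM untreated and 51.8, 93.1, 132 and 59.3 RPKM, with changes of 0.26, 0.49, 1.55 and −0.14 (SE 0.41 each; adjusted p = 1, 1, 0.0139 and 0.891). The S51A call at 2 h was lost without cytosol a or ER b of 0 h or without cytosol b or ER a of 2 h (adjusted p of 0.139, 0.0559, 0.193 and 0.0544). In the libraries labelled ATF4-/- the fitted change of Ptgs2 was 1.20, 1.81 and 1.495 at 0.5, 1 and 2 h (SE 0.41 each, adjusted p = 0.0282, 0.00159 and 0.00846). At 4 h it was 0.07 ± 0.41 (adjusted p = 0.926). Its totals there were 135 RPKM untreated and 129, 271, 308 and 104 RPKM from 0.5 h to 4 h. These are 0.953, 2.00, 2.28 and 0.769 times the untreated one, so the total shows no rise at 0.5 h. The 0.5 h call there was lost in 6 of the 8 fits that left out 1 library, with adjusted p of up to 0.105. The S51A minus WT difference was itself called, at −3.19 ± 0.57 at 0.5 h (adjusted p = 0.000243), −2.46 ± 0.57 at 1 h (adjusted p = 0.00258) and −1.69 ± 0.57 at 4 h (adjusted p = 0.0425), but not at 2 h, at −0.83 ± 0.57 (adjusted p = 0.333). At 0.5 h and 1 h Ptgs2 passed the depth rule in WT only through its treated level, so the calls at those times are a description. Il6, a cytokine gene, rose by 2.07 ± 0.30 in WT at 4 h (adjusted p = 2.37e-06) and held at most 0.455 RPKM in S51A and 0.569 RPKM in the libraries labelled ATF4-/-, too little to test. Bdnf, a growth factor gene, rose by 0.99 ± 0.25 in WT at 4 h (adjusted p = 0.00285). The cell cycle genes Ccnd1 and Cdk4 fell in WT: Ccnd1 by 1.88 ± 0.31 at 4 h (adjusted p = 1.73e-05), and Cdk4 by 0.75 ± 0.14 at 1 h (adjusted p = 5.79e-05).

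In S51A the genes that fell were immediate-early genes with high untreated levels. Untreated totals of Egr2, Egr3 and Nr4a1 were 112, 44.1 and 307 RPKM in S51A, against 0.723, 0.0976 and 4.51 RPKM in WT. At 4 h they had fallen in S51A, with log2 changes of −5.24 ± 0.21, −4.06 ± 0.24 and −4.74 ± 0.32 (adjusted p = 7.82e-20, 5.08e-15 and 2.07e-13). Egr2 was already lower at 1 h, by 1.73 ± 0.21 (adjusted p = 1.74e-06), and Nr4a3 rose by 1.12 ± 0.20 (adjusted p = 0.00137). With a pseudocount of 0.1 the changes were −1.79 for Egr2 and 2.45 for Nr4a3, and both of these 1 h calls were lost (adjusted p = 0.0743 each). As said above, Nr4a3 at 1 h passed the depth rule only through its treated level, and Egr2 and Egr3 at 4 h only through their untreated one. In the libraries labelled ATF4-/- Egr2, Egr3 and Nr4a1 rose at 1 h, by 1.74 ± 0.21, 1.61 ± 0.24 and 2.38 ± 0.32 (adjusted p = 3.25e-07, 9.2e-06 and 1.83e-06). In WT Egr2 and Egr3 held too few reads to test at any time. Nr4a1 passed the depth rule in WT at 2 h alone, through its treated level. Its change there was 2.52 ± 0.32 (adjusted p = 2.73e-07), while in S51A at 2 h its change was −3.05 ± 0.32 (adjusted p = 2.37e-08).

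Among reported NFAT5 targets the heat shock genes Hspa1a and Hspa1b, near-identical copies whose reads may be split between them, rose at 1 h in S51A by 0.76 ± 0.18 and 0.75 ± 0.18 (adjusted p = 0.0446 and 0.0474) and in WT by 0.76 ± 0.18 and 0.70 ± 0.18 (adjusted p = 0.00107 and 0.00224). The S51A calls of both were lost without cytosol a or ER b of 0 h or without cytosol a or ER a of 1 h, with adjusted p of 0.401, 0.319, 0.636 and 0.438 for Hspa1a and 0.415, 0.372, 0.655 and 0.438 for Hspa1b. Both were also lost with a pseudocount of 0.1 (adjusted p = 0.0958 and 0.106) and when limma was fitted within S51A alone (adjusted p = 0.207 and 0.212). That of Hspa1b was lost too with no depth rule (adjusted p = 0.0527) and with at least 10 predicted reads (adjusted p = 0.0504). Hspa1a and Hspa1b were the 2 of 6 tested NFAT5 targets called in S51A (0.255% of all genes were called higher) and the 2 of 3 in WT (16.2%) at 1 h. Akr1b3, the aldose reductase gene, rose in S51A at 4 h by 1.20 ± 0.36 (adjusted p = 0.0293), the 1 of 6 called there (4.82% of all genes higher). Its call was lost without cytosol a or ER b of 0 h or without cytosol a or ER a of 4 h (adjusted p of 0.13, 0.146, 0.262 and 0.263).

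At 2 h in S51A 4 of 6 tested NFAT5 targets rose (3.7% of all genes higher). They were Slc5a3, the myo-inositol transporter gene, by 1.31 ± 0.28 (adjusted p = 0.00206), Akr1b3 by 1.39 ± 0.36 (adjusted p = 0.0129), and Hspa1a and Hspa1b by 0.68 ± 0.18 and 0.66 ± 0.18 (adjusted p = 0.0167 and 0.0181). Slc5a3 is named after its values were seen, and its call was lost without cytosol b of 2 h (adjusted p = 0.056). The calls of Akr1b3, Hspa1a and Hspa1b were each lost in 4 of the 8 fits without 1 library, with adjusted p of up to 0.117, 0.172 and 0.18. In WT at 0.5 h 3 of 4 rose (18% of all genes higher), Hspa1a, Hspa1b and Slc38a2, an amino acid transporter gene named after its values were seen that passed the depth rule only through its treated level, and each of these calls was lost without cytosol b of 0.5 h (adjusted p of 0.094, 0.078 and 0.0627). Without WT cytosol b of 0 h those of Hspa1a and Hspa1b were lost too (adjusted p of 0.096 and 0.0972), as they were without WT ER b of 0 h (adjusted p of 0.0545 and 0.0518), and that of Hspa1a without ER b of 0.5 h (adjusted p = 0.0503). Elsewhere no NFAT5 target was called. This held for 0 of 5 at each of the 4 times in the libraries labelled ATF4-/- (24.5%, 20.8%, 17.8% and 22% of all genes called). Hspa1a and Hspa1b reached an unadjusted p under 0.05 there at 2 h. It also held for 0 of 4 in WT at 2 h and 4 h (34% and 29.9%) and 0 of 6 in S51A at 0.5 h (0%).

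Of the calcium store and entry genes, 2 of 7 tested rose in the libraries labelled ATF4-/- at 4 h, Tmco1 and Tmem66 (13.2% of all genes higher). Both passed the depth rule only through their treated level, and each call was lost without 1 or another library (adjusted p of up to 0.0826 and 0.0725). In S51A at 2 h 3 of 11 rose (3.7% of all genes higher): Atp2b1, a plasma membrane calcium pump gene, by 1.42 ± 0.30 (adjusted p = 0.00199), Atp2a2, which encodes an ER calcium pump of the kind thapsigargin blocks, by 1.45 ± 0.45 (adjusted p = 0.0399), and Tmem66 by 1.14 ± 0.35 (adjusted p = 0.0382). The call of Atp2b1 was kept in each fit without 1 library, while those of Atp2a2 and Tmem66 were lost in 6 and 5 of 8 such fits (adjusted p of up to 0.333 and 0.437). These calcium genes are named after their values were seen. At the other times 0 of 8 were called in S51A (0%, 0.463% and 9.33% of all genes at 0.5, 1 and 4 h). For the libraries labelled ATF4-/- 1 of 4 rose and 1 fell at 0.5 h (9.98% and 14.5%), and 0 of 4 were called at 1 h and 2 h (20.8% and 17.8%). In WT 1 of 1 rose at 0.5 h and at 1 h (18% and 16.2% higher), 1 of 3 rose at 2 h (23.4%) and 0 of 3 were called at 4 h (29.9% called). Of the calcineurin substrates outside NFAT limma called 0 of 12 in S51A at 1 h and at 4 h (0 at an unadjusted p under 0.05 each). Over all genes 0.463% and 9.33% were called at these times. At 2 h in S51A 1 of 12 rose, Mef2a, and 1 fell, Dnm1l (3.7% and 3.89% of all genes). Both of these genes are named at 2 h after their values were seen, and each call was lost in 7 of 8 fits without 1 library (adjusted p of up to 0.186 and 0.295). For the libraries labelled ATF4-/-, 1 of 7 fell at 0.5 h (14.5% of all genes lower), and 0 of 7, 0 of 8 and 0 of 9 were called later (1, 0 and 1 unadjusted). The shares of all genes called at these later times were 20.8%, 17.8% and 22%. The 1 tested in WT at 0.5 h and 1 h, Dnm1l, a mitochondrial fission gene, fell at both (30.7% and 24.1% of all genes lower), at 1 h by 0.48 ± 0.14 (limma adjusted p = 0.00816). That 1 h call was lost without WT ER library b of 0 h (adjusted p = 0.074). It was also lost with voom on recovered reads (adjusted p = 0.0573) and without the WT footprint libraries that have the fewest reads (adjusted p = 0.0574). At 2 h and 4 h limma called 0 of 5 in WT (0 unadjusted each), beside 34% and 29.9% of all genes.

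**Figure D5:**
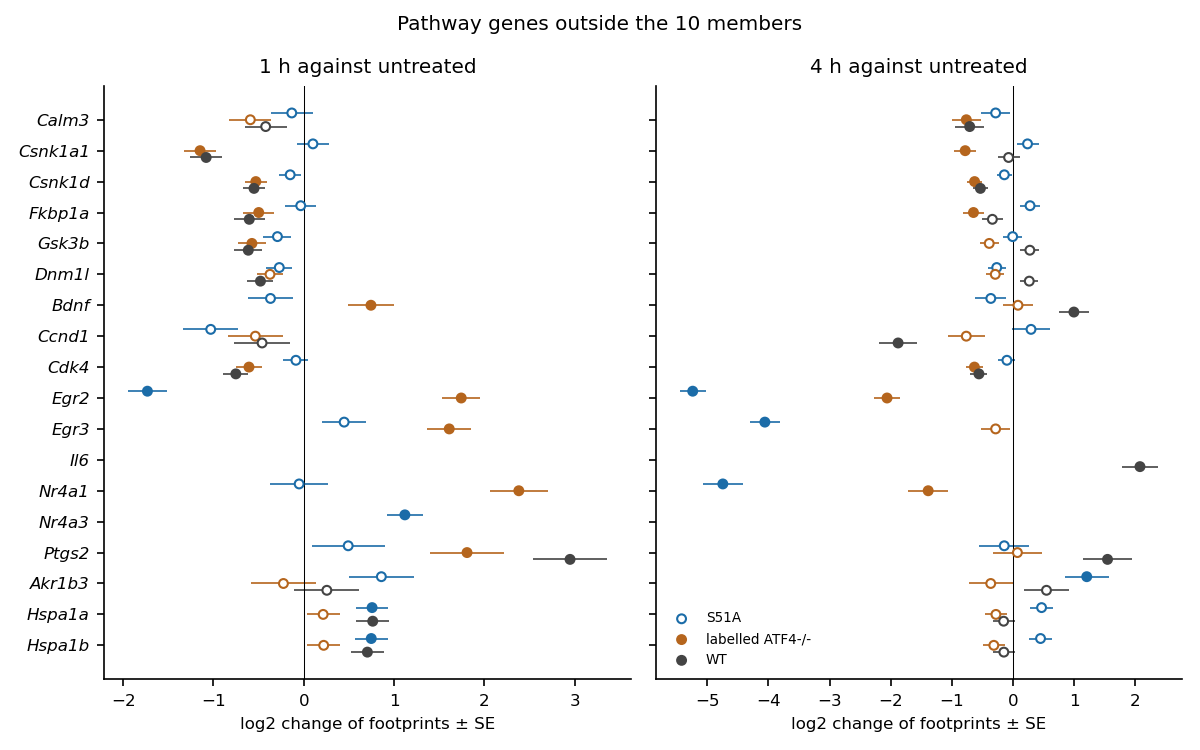
Change of footprints against untreated, log2 ± SE, at 1 h (left) and 4 h (right) for the named genes of 4 lists, in S51A, cells labelled ATF4-/- and WT; filled points have an adjusted p under 0.05 and genes with too few reads have no point. Ptgs2 lies at 2.95 in WT at 1 h and Egr2 at −5.24 in S51A at 4 h, both genes that passed the depth rule there only through the group where they are higher.

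The change itself was also compared between lines. S51A minus WT was called for 6 of 16 tested list genes at 0.5 h (25.8% of all genes), 4 of 16 at 1 h (19.9%), 3 of 29 at 2 h (19.7%) and 3 of 29 at 4 h (14.5%). At 2 h the count was 0 with 20 reads required at the level of each group, and 1 without S51A ER library a of 0 h. ATF4-/- minus WT was called for 1 of 16 at 0.5 h, Ptgs2, where it was lower (3.8% of all genes). That call was of a gene that passed the depth rule through its treated WT level, and voom called 0. Limma called 0 of 16 at 1 h (0.813% of all genes; 2 at an unadjusted p under 0.05; voom 0), 0 of 28 at 2 h (1.11%; 5 unadjusted; voom 0) and 0 of 28 at 4 h (4.34%; 6 unadjusted; voom 2). Untreated, 12 of 36 tested list genes were higher and 8 lower in S51A than in WT (14.7% and 27.2% of all genes), and 5 of 34 were higher and 14 lower in the libraries labelled ATF4-/- (13.8% and 37.8%). With 20 reads required at the level of each group, 15 list genes were called in each of these untreated comparisons. For mRNA, 1 list gene in S51A at 4 h and 4 and 3 in WT at 1 h and 4 h held enough reads, and limma called 0 of them (1 in S51A at an unadjusted p under 0.05, 0 in WT). No other tool was run on mRNA.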

How the data were processed

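Ribosome footprints and mRNA were measured in cytosol and ER fractions of the 3 lines at 5 times. The authors deposited a table of each with pooled total levels in RPKM (a unit read from the values, which no header names) and, per the file headers, the fraction of each gene on the ER, a ratio of the ER level to the total level that runs from 0 to 1. Per the submitters' processing notes, Bowtie 1.1.1 and cutadapt 1.6 were used; genome build, annotation and filters are not stated in those notes or headers. The authors' totals add cytosol and ER levels, each averaged over the libraries with reads, so zeros are left out.

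Library values were recovered from these pooled numbers: level times coding length (GENCODE, 20224 genes, 90.2%, plus 2 nt) equals whole reads times the worth of 1 read in each library, solved to a relative tolerance of 7e-12. Of the footprint values 98.0% were solved and of the mRNA values 98.2%, against 0.137% and 0.182% with lengths exchanged between genes. On simulated data 99.911% to 100% were solved, all of these right. Recovered libraries carry no replicate number and keep the authors' fraction weights. No library was a copy of the other library of its group (chi-square per degree of freedom 1.90 or more for footprints, 1.50 or more for mRNA, over genes with at least 20 reads). This check did not compare libraries of different groups, and the single mRNA libraries labelled ATF4-/- had no partner for it.

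Levels on log2(RPKM + 1) were tested with limma 3.58.1 (trend, empirical Bayes) in R 4.3.3, group means, change averaged over the 2 fractions, all 60 footprint libraries (40 for mRNA), with a level of at least 1 RPKM in at least 10 libraries (10332 and 10279 genes). A log2 change is on this scale, which understates low genes. Benjamini-Hochberg adjustment ran over all genes tested in a comparison, with a threshold of 0.05. A gene entered a comparison only where its mean level predicted at least 20 reads in every compared library, for differences between lines within each line. This depth rule was first listed as an alternative. It was made part of the test after simulated WT data for 1 h gave 166 false of 314 calls without it (7 of 74 with it), and after results without it had been seen. The within-line form and the count over all 5 lists were also chosen after results were seen. With it, 71.4% of simulated 2-fold changes were found in WT at 1 h and 28.2% in S51A at 1 h, and 100% and 95.2% of 4-fold ones. The members and lists were chosen with earlier results of these data known. Named list genes are those called in WT or S51A at 1 h or 4 h, at most 4 per list and comparison; their 0.5 h and 2 h values and the genes said to be named after their values were seen were added later. edgeR was not run because the deposited values are normalized. Member mRNA and mRNA labelled ATF4-/- were not tested. Promoters come from RefSeq (GRCm38.p6). A list gene that is counted but not named is not reported here.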

Additional observations from a re-analysis of the deposited data

Results flagged for a closer look

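Of the S51A minus WT calls counted above for list genes, 6 at 1 h and 4 h are flagged here. They come from limma's test of the difference itself, given on the log2 scale with its SE. The other calls, at these times and at 0.5 h and 2 h, are not in this section. At 1 h the differences were 1.18 ± 0.25 for Csnk1a1 (adjusted p = 0.00117), 0.67 ± 0.20 for Cdk4 (adjusted p = 0.0149) and −2.46 ± 0.57 for Ptgs2 (adjusted p = 0.00258). At 4 h they were −1.36 ± 0.35 for Bdnf (adjusted p = 0.00792), 2.17 ± 0.43 for Ccnd1 (adjusted p = 0.000611) and −1.69 ± 0.57 for Ptgs2 (adjusted p = 0.0425). Ptgs2 at 1 h and Ccnd1 at 4 h passed the depth rule in WT only through the group where they are higher. S51A and WT are separate lines, and what in them accounts for a difference was not tested. With 2 libraries per group no single library could be tested as an outlier.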

How the results depend on the processing

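No result reversed its direction under any alternative, but 22 of 33 counts and tested summaries moved under at least 1, as did 44 of 131 other values, among them 4 Rcan1 ratios in WT without cytosol a of 0 h. Dropping the level filter moved none of the 119 values it was run on, and scaling by trimmed means moved 2, the change of Dnm1l in S51A at 2 h (−0.40, adjusted p = 0.0913, against −0.47) and the count of list genes that differ in S51A minus WT at 2 h (5, against 3). With 20 reads required at the level of each group, S51A at 1 h gave 0 mRNA genes, against 1, and S51A at 4 h 2 list genes, against 4. Counts below are of genes called at an adjusted p under 0.05 by limma. Footprints in S51A at 1 h gave 40 genes, against 22 with a pseudocount of 0.1, 64 with 5, 151 with voom on recovered reads, 78 without the shallow libraries and 18 to 43 when 1 library was left out (18 without ER a of 1 h). At 4 h S51A gave 822, against 1882 with voom, 1349 without shallow libraries and 407 to 703 with 1 left out (407 without cytosol a of 4 h). Labelled ATF4-/- at 1 h gave 1358, and 900 to 1154 with 1 left out (900 without cytosol b of 1 h). WT at 1 h gave 1105, against 2978 with no depth rule and 2349 without shallow libraries. The mRNA counts were 1 in S51A at 1 h, against 7 with no depth rule, 3 with at least 10 predicted reads, 18 without shallow libraries and 0 to 10 with 1 left out. In S51A at 4 h they were 0, against 6, 1, 20 and 0 to 16 under the same alternatives, with 10 and 16 reached without cytosol a of 0 h. In WT they were 0 at 1 h, against 1 without shallow libraries, and 0 at 4 h, against 7 with no depth rule and 6 without shallow libraries. These mRNA zeros had 4 (S51A 4 h), 3 (WT 1 h) and 5 (WT 4 h) genes at an unadjusted p under 0.05.

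List genes in S51A at 1 h numbered 4, against 0 with a pseudocount of 0.1, 2 when fitted within 1 genotype and 1 to 4 with 1 library left out (1 without ER a of 1 h). In WT at 1 h they numbered 10, against 22 with no depth rule and 18 without shallow libraries, and in S51A at 4 h 4, against 11 with voom and 7 without shallow libraries. The difference S51A minus WT at 1 h gave 4, against 10 with no depth rule, 7 with at least 10 reads, 12 without shallow libraries and 3 to 8 with 1 left out (8 without WT cytosol b of 1 h), and at 4 h 3, against 6 with voom and 7 with no depth rule. ATF4-/- minus WT gave 0 at 1 h, against 2 with no depth rule and 0 to 1 with 1 left out (1 without WT ER a of 1 h). At 4 h it gave 0, against 2 with voom, 4 with no depth rule, 1 with at least 10 reads, 2 without shallow libraries and 0 to 1 with 1 left out (1 without WT ER b of 0 h). Untreated, it gave 19, against 31 with no depth rule. Members with a changed ER split numbered 0 in S51A, against 2 without shallow libraries and 0 to 2 with 1 left out, and 0 in WT, against 3 with no depth rule, 1 without shallow libraries and 0 to 1 with 1 left out. Members lower on the untreated ER numbered 3 in S51A, against 5 without shallow libraries and 1 to 4 with 1 left out, 0 labelled ATF4-/-, against 1 without shallow libraries, and 2 in WT, with 1 to 5 when 1 was left out. The Rcan1 change labelled ATF4-/- at 2 h was 2.14, against 1.41 with a pseudocount of 5. Fitted within S51A alone, the calls of Akr1b3 at 2 h and 4 h were lost. So were those of Ptgs2, Hspa1a, Hspa1b, Tmem66 and Dnm1l at 2 h. With a pseudocount of 0.1 those of Atp2a2 and Tmem66 in S51A at 2 h were lost. With 5, those labelled ATF4-/- of Ptgs2 at 0.5 h and of Tmem66 and Tmco1 at 4 h were lost. Without shallow libraries those of Hspa1a, Hspa1b and Slc38a2 in WT at 0.5 h were lost. The cause of these shifts was not tested. The settings without a depth rule, with at least 10 reads or with 20 at the level of each group, the Rcan1 ratios without 1 library, and the genes recomputed at 0.5 h and 2 h were chosen after seeing the data.

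No paired analysis was possible because the recovered libraries carry no replicate number. edgeR on the counts was not run, since the deposited values are normalized. Depth limits WT at 0.5 h and 1 h and all mRNA most.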
